A study of Mus musculus with 55 samples.

Results

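RNA was compared between 5 tumours of untreated growth and 5 tumours taken at baseline, all grown from BBN963 cells in NSG mice. These 10 libraries are all the RNA libraries that the labels place in the NSG vehicle and NSG baseline groups, out of 55 samples in the series. BBN963 is a mouse bladder cancer cell line, and here it was grown under the skin. NSG is an immunodeficient mouse strain that carries a mutation in Prkdc, which encodes the catalytic subunit of DNA-dependent protein kinase, and lacks Il2rg, the receptor chain shared by several interleukins. Such mice lack T, B and NK cells but keep neutrophils, macrophages and, with reduced function, dendritic cells. Neither group received entinostat, the histone deacetylase inhibitor that the series studied. The sample names call the vehicle group Non-Treatment and the treatment label calls it Vehicle, and both names stand for the same 5 tumours. The series gives injection numbers and tumour volumes for C57BL/6 mice only. For NSG mice the age, the volume at collection and the days between baseline and vehicle collection are not stated in the sources used here, so tumour age, tumour size and vehicle chow cannot be told apart. The description labels of the libraries end in a number with the letter S, and 4 vehicle libraries carry the same numbers as 4 baseline libraries. Whether these were separate sequencing runs is not stated in the sources used here, so a run that follows the groups cannot be told apart from them either. All tumours came from 1 cell line, each is a bulk mixture of cancer and host cells, and no tumour was sampled at both times. Tumours are named below by group and number, so that baseline-303 is the tumour labelled NSG_Baseline_303 and vehicle-302 the one labelled NSG_Non-Treatment_302. Nothing in the labels says whether each tumour came from its own mouse, so p-values measure the spread between these tumours.

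A tumour that grows under the skin draws fibroblasts, vessels and myeloid cells from its host. Fibroblasts lay down collagen, endothelial cells line the vessels, macrophages and dendritic cells take up debris and present antigen on MHC class II, and neutrophils enter from the blood and carry ready-made granules. Where oxygen is short, the transcription factor HIF binds short sequences in the promoters of its targets and raises glycolytic and vessel-growth genes. Ribosomal protein transcripts are short and abundant, and many begin with a run of pyrimidines at which their translation is controlled.

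Higher in vehicle tumours were 81 of 86 genes for proteins of the cytosolic ribosome, 3 of 7 stefin A protease inhibitors, 4 of 12 neutrophil genes and 5 of 17 hypoxia genes, among them Hilpda and Ankrd37. Lower were 9 of 12 dendritic cell genes, 6 of 9 MHC class II genes, 5 of 20 macrophage and monocyte genes, 14 of 36 collagen chains and 7 of 13 endothelial genes. None of 16 genes of the basal and squamous keratin list, which also holds genes other than keratins, passed the test. None of 20 mitosis genes passed either. A gene was called when its p-value in limma, a linear model that borrows strength across genes, was under 0.05 after Benjamini-Hochberg adjustment over all genes. Values are log2 of the normalized count plus 1, so a log2 fold change of 1 is close to 2-fold for an abundant gene and understates the change of a low one. By this rule 2312 of 17752 genes (13%) were called, 1336 higher in vehicle (7.53%) and 976 lower (5.5%). Of the called genes, 423 were at least 2-fold higher and 500 at least 2-fold lower, together 5.2% of genes. The smallest adjusted p was 0.014, and 5866 genes (33%) had an unadjusted p under 0.05. Values of the 5 tumours on either side did not overlap for 1143 genes higher in vehicle (6.44%) and 1002 genes lower (5.64%). The median log2 fold change of all genes was -0.04.

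**Figure D1:**
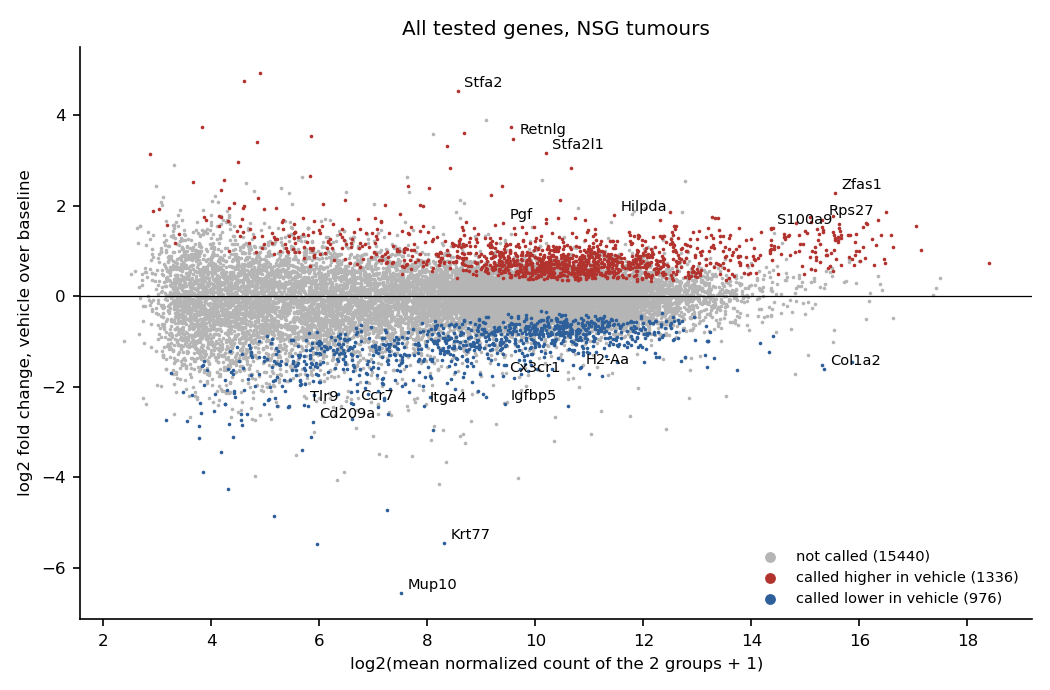
Each point is 1 of the 17752 genes tested, placed by the log2 of its mean normalized count (horizontal) and by its log2 fold change of vehicle over baseline (vertical). Red points are the 1336 genes called higher in vehicle tumours, blue points the 976 called lower and grey points the rest, and Stfa2, at 4.53, and Mup10, at -6.56, lie among the extremes.

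The calls rested on single tumours. Without baseline-303, limma called 0 genes, with 4573 at an unadjusted p under 0.05 and a smallest adjusted p of 0.0505. Without baseline-305 it called 43 and without vehicle-326 it called 44. The counts were 153 higher and 155 lower without vehicle-323. In all, limma called 808 without baseline-320 and 1492 without vehicle-311. The number was 1810 without baseline-304, 2093 without baseline-316, 3221 without vehicle-308 and 3292 without vehicle-302. Entinostat-319, the library of lowest depth at about 11 M reads, entered through the shared spread and the filter on low values, and with it left out of the spread the count was 3707. Fold changes moved little in some called genes: that of Zfas1 lay between 2.07 and 2.64 and that of Cx3cr1 between -1.87 and -1.64 over the 10 omissions. They moved more in others: that of Cd209a lay between -3.31 and -1.85 and that of Pcp4l1 between 2.14 and 3.27. In every paragraph that follows, a call therefore holds with all 10 tumours and is lost without baseline-303.

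**Figure D2:**
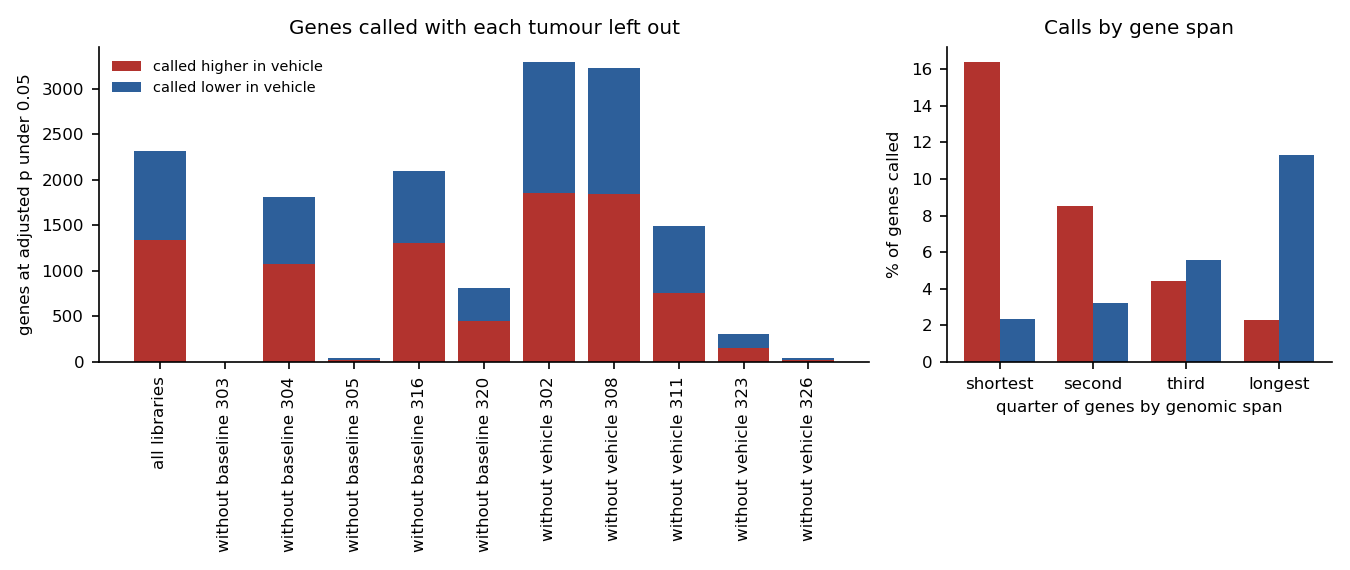
The left panel gives the number of genes called higher (red) and lower (blue) in vehicle tumours with all 10 tumours and with each tumour left out in turn, falling to 0 without baseline-303, 43 without baseline-305 and 44 without vehicle-326. The right panel gives the percentage of genes called in each direction in 4 equal groups of genes ordered by the length they span on the chromosome, from 16.4% higher and 2.33% lower among the shortest to 2.28% higher and 11.3% lower among the longest.

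The libraries differed in ways that moved with the groups. Depth, read from the value that 1 read took, was about 25.8 to 38.3 M reads (M for mega) in baseline and 23.9 to 36 M in vehicle tumours. The summed normalized count was 28.24 to 30.26 M in baseline and 31.41 to 37.25 M in vehicle tumours, without overlap. Each library's deviation from the gene means was correlated with the chromosomal span of the gene: Spearman's rho across 16487 genes was 0.0325 to 0.378 in baseline and -0.352 to -0.00821 in vehicle tumours. Genes spanning up to 7.69 kb had a median log2 fold change of 0.272, and genes spanning 49.5 kb or more had one of -0.305. When each library's trend with span was removed, an alternative chosen after the values were seen, 1658 of 16487 genes were called, 1007 higher and 651 lower. Counts with the trend removed are given below beside the gene groups whose count changed by more than 1.5 times, and the part of RNA quality in this trend was not tested. Vehicle tumours varied more than baseline tumours. The median standard deviation of a gene was 0.393 on the log2 scale in vehicle and 0.256 in baseline tumours, and 76.5% of genes varied more in vehicle. On the first principal component, 34.3% of the variance, baseline tumours lay between -56.9 and -32.3 and vehicle tumours between -6.56 (vehicle-302) and 94.4 (vehicle-326).

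**Figure D3:**
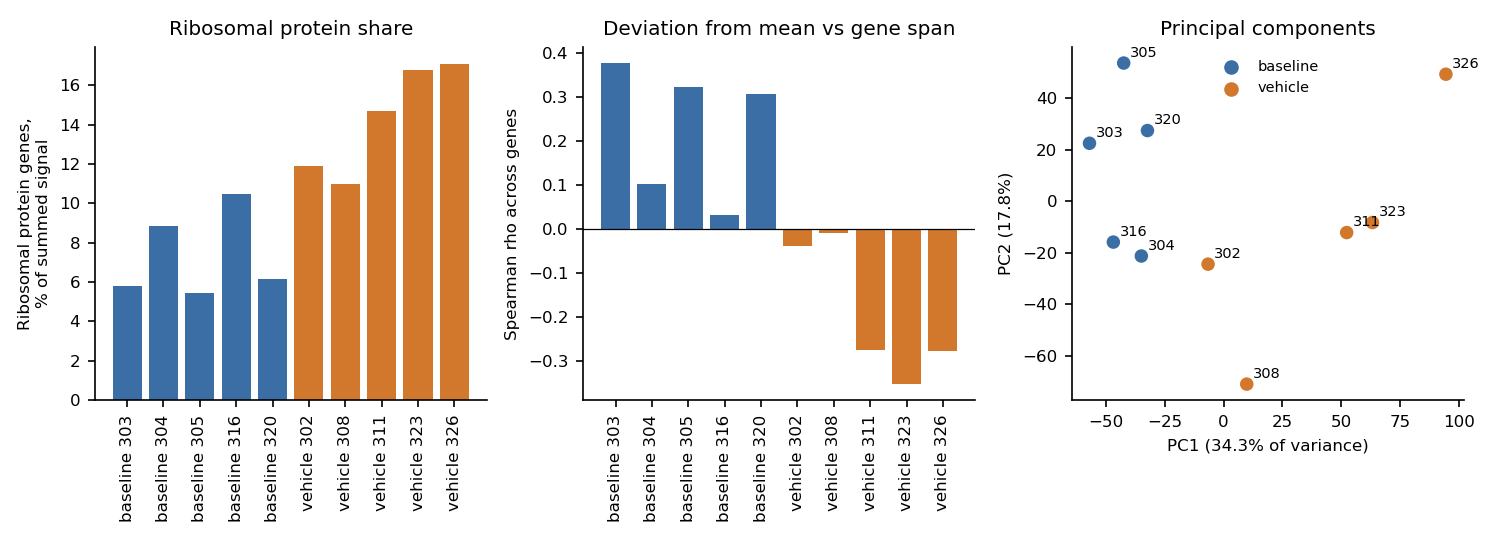
The left panel plots the share of the summed normalized count held by ribosomal protein genes in each tumour, 5.43 to 10.5% in baseline (blue) and 11 to 17.1% in vehicle (orange). The middle panel plots Spearman's rho between a library's deviation from the gene means and gene span, and the right panel places the tumours on the first (34.3%) and second (17.8%) principal components.

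Per-tumour values below are normalized counts in the order baseline-303, baseline-304, baseline-305, baseline-316 and baseline-320 and vehicle-302, vehicle-308, vehicle-311, vehicle-323 and vehicle-326. The largest group that moved together was the cytosolic ribosome. Of 86 genes for its proteins, 81 were called higher, 0 were called lower, and the median log2 fold change was 1.22 against -0.04 for all genes. The 5 that were not called were Rpl39l, Rpl3l, Rpl7l1, Rps3a3 and Rps4l. Rps27, a protein of the small subunit (ENSMUSG00000090733, mm10 chromosome 3, 90212667 to 90213648), was at 14124, 24203, 12850, 27155 and 15672 in baseline and 40767, 36254, 53948, 87367 and 94890 in vehicle tumours. Every vehicle tumour lay above every baseline tumour, and baseline-304 and baseline-316 were the highest of their group. The log2 fold change of Rps27 was 1.69 (SE 0.34, limma adjusted p = 0.0181). Rpl35, of the large subunit, was at 9200, 16518, 10182, 29571 and 10075 against 33402, 29973, 48924, 49123 and 52744, a log2 fold change of 1.62 (limma SE 0.37, adjusted p = 0.0199). Baseline-316 lay just below vehicle-308, and the other 4 baseline tumours lay far below the vehicle group. Rplp0, a stalk protein, rose by 1.03, Rps19 by 1.59 and Rpl32 by 1.62. As a share of the summed normalized count, these genes took 5.8, 8.85, 5.43, 10.5 and 6.15% in baseline and 11.9, 11, 14.7, 16.8 and 17.1% in vehicle tumours. With the span trend removed 77 of the 86 were called higher and 1 lower, and the median was 0.961. Quantile scaling left 49 called with a median of 0.637, and cyclic loess scaling 64 with a median of 0.766, 2 normalizations that force the libraries toward one distribution. The call of the group was lost without baseline-303, baseline-305 or vehicle-326 (0 called each) and fell to 21 without vehicle-323, while the median stayed between 1.11 and 1.38 over the 10 omissions. Many ribosomal protein genes have processed pseudogenes with near-identical sequence, and how reads were split among copies is not given in the sources used here.

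Several ribosomal protein genes hold a pyrimidine run at the start of transcription, and 3 called examples are shown because their transcripts moved together. Each window runs from 25 bases before to 25 bases after the RefSeq start (GRCm38.p6, the mm10 assembly), on the coding strand, with CTTTCC and CTCTTT in capitals where they occur, overlapping where they share bases. The examples were chosen after their values were seen. Where a gene has several annotated starts, the start with the most matches is shown.
Rps27, chr3:90213624-90213673, minus strand: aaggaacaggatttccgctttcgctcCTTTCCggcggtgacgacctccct
Rpl35, chr2:39005107-39005156, minus strand: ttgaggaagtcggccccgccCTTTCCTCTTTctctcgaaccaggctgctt
Rpl28, chr7:4792940-4792989, plus strand: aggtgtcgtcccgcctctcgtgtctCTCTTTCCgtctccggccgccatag
Of 62 ribosomal protein genes with a promoter window in RefSeq, 16 (25.8%) held CTTTCC or CTCTTT on the coding strand in these 50 bases, against 552 of 12233 genes tested (4.51%). On the other strand the shares were 4.84% and 3.85%. Among all genes called higher the coding-strand share was 7.19% (71 of 987), and among genes called lower 4.73%. The genes called higher include 59 of these ribosomal protein genes, which hold 15 of the 71 matches. A gene with several annotated starts counted if any of them had a match, so these shares depend on the number of starts. A match is a description of letters, and a start site in the annotation can lie some bases from the true one. Rpl28, a protein of the large subunit, was at 12174, 17550, 11283, 16459 and 13147 in baseline and 22060, 23057, 23317, 35640 and 34425 in vehicle tumours, which did not overlap, and it rose by 0.96 (SE 0.21, limma adjusted p = 0.0194).

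Other genes of protein synthesis moved in the same direction less uniformly. Of 17 genes for translation factors and other transcripts listed for a pyrimidine start, a list made after values were seen, 11 were called higher. Their median was 0.84. In the search above, 3 of the 10 with a promoter window (30%) held CTTTCC or CTCTTT on the coding strand near the start. Eef1a1, which brings aminoacyl-tRNA to the ribosome, rose by 0.72, and Fau, whose ribosomal protein is made as a fusion to a ubiquitin-like sequence, rose by 1.44. Eif3f, of the initiation factor complex, rose by 1.11 and Tpt1 by 0.81. Pabpc1, the poly(A)-binding protein, was at -0.10, Eif4b at 0.06 and the elongation factor gene Eef2 at 0.28, and none of these passed. The count of 11 became 8 with the span trend removed, 4 with quantile scaling and 5 with cyclic loess scaling. It was 0 without baseline-303, baseline-305 or vehicle-326, 2 without vehicle-323, 3 without baseline-320 and 7 without vehicle-311.

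Host transcripts of small nucleolar RNAs, whose introns yield the guide RNAs of ribosomal RNA modification, were called higher in 13 of 15 cases, with a median of 1.11. Zfas1 (ENSMUSG00000074578, chromosome 2, 167062934 to 167065862) was at 10797, 18579, 11879, 19265 and 14748 in baseline and 62871, 26157, 84244, 103886 and 126275 in vehicle tumours. All vehicle tumours were above baseline, with vehicle-308 closest to it. Its log2 fold change was 2.28 (SE 0.39, limma adjusted p = 0.014). Snhg12 was at 3589, 6515, 3665, 4568 and 4682 against 13410, 5958, 14414, 24009 and 26540, a rise of 1.73 (SE 0.35, limma adjusted p = 0.0181). In Snhg12 the groups overlapped, since vehicle-308 lay below baseline-304. Gas5 rose by 1.11 and Snhg6 by 1.43. Snhg4, at 0.62, and Snhg18, at 0.16, did not pass. The list count stayed at 13 with the span trend removed and with both other scalings, and was 0 without baseline-303, 1 without baseline-305, 1 without vehicle-326 and 8 without vehicle-323.

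Part of the mitochondrial ribosomal protein and respiratory complex I genes went the same way. Of 78 mitochondrial ribosomal protein genes 36 were called higher, with a median of 0.65, among them Mrps18b at 0.81. Of 36 complex I genes, whose products pass electrons from NADH to ubiquinone, 25 were called higher, with a median of 0.78. Ndufa7 was at 1954, 2964, 2049, 3582 and 2717 in baseline and 4358, 4923, 8152, 7762 and 8110 in vehicle tumours, with no overlap, and rose by 1.31 (SE 0.27, limma adjusted p = 0.0181). Ndufb4 rose by 1.20 and Ndufv3 by 1.06. Ndufs1, the largest subunit, was at -0.36 and did not pass. Of 19 genes over the whole respiratory chain 3 were called higher: Cox5b at 1.02, Cox5a at 0.69 and Cox4i1 at 0.80. Of 37 proteasome genes 11 were called higher, with a median of 0.46, led by Psmd8 at 1.03 (SE 0.22, limma adjusted p = 0.0185). Removal of the span trend left counts of 25 for mitochondrial ribosomal proteins, 16 for complex I and 7 for the proteasome, and cyclic loess scaling left 5 for the proteasome. All 3 were 0 without baseline-303, baseline-305 or vehicle-326. Without baseline-320 they were 8, 4 and 2, without vehicle-311 they were 13, 7 and 4, and without vehicle-323 they were 0, 1 and 0. The proteasome count was 20 without vehicle-302. The respiratory chain count was 0 without baseline-303, baseline-305, baseline-320, vehicle-323 or vehicle-326, 1 without vehicle-311, and 6 and 5 without vehicle-302 and vehicle-308.

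Some transcripts of neutrophils were higher in vehicle tumours. Of 12 neutrophil genes 4 were called higher and 0 lower, with a median of 0.68. In bulk tumours fewer cells of a type and less RNA per cell cannot be told apart, here and below. Retnlg, a secreted resistin-like protein of neutrophils (ENSMUSG00000022651, chromosome 16, 48872608 to 48874498), was at 59.6, 150, 64.3, 133 and 110 in baseline and 2659, 361, 797, 797 and 2551 in vehicle tumours. The groups did not overlap, and vehicle-302 and vehicle-326 were the highest. Retnlg rose by 3.48 (SE 0.68, limma adjusted p = 0.0176). S100a8 and S100a9, which form calprotectin, rose by 1.75 and 1.49, and the collagenase gene Mmp8 by 2.02 (limma adjusted p = 0.0286, 0.0244 and 0.0364). S100a9 was at 6354, 13287, 7647, 13525 and 12279 against 51077, 13977, 42190, 21878 and 28891, where vehicle-308 lay just above baseline-316. Receptors that define the cell were not called. Csf3r, the receptor for granulocyte colony-stimulating factor, was at 7399, 11823, 9610, 9441 and 11989 against 13708, 4165, 10034, 5629 and 4661, a log2 fold change of -0.53 (limma adjusted p = 0.248). Cxcr2, the receptor for neutrophil chemokines, was at -0.39 (limma adjusted p = 0.366). Ly6g, a neutrophil surface marker, was at 1.36 (limma adjusted p = 0.0641). The summed count of the 12 genes was 30265 to 50742 in baseline and 31647 to 124920 in vehicle tumours. Removal of the span trend left 2 called. Without baseline-303, baseline-305 or vehicle-326 none was called, 1 was called without vehicle-323, and 2 were called without baseline-320 or vehicle-311.

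The stefin A cluster on chromosome 16 gave the highest median of the lists. Stefins inhibit cysteine cathepsins, and the mouse cluster is expressed in granulocytes and skin. Of 7 members tested, from a list made after values were seen, 3 were called higher and the median was 2.63. Stfa2 (ENSMUSG00000022902, chromosome 16, 36403946 to 36408363) was at 5.02, 38.3, 8.66, 75.7 and 25.8 in baseline and 1051, 131, 269, 499 and 1659 in vehicle tumours. Vehicle-308 was the lowest of its group, and the groups did not overlap. Its log2 fold change was 4.53 (SE 0.77, limma adjusted p = 0.014). Stfa2l1 was at 105, 341, 143, 275 and 231 against 3063, 635, 1742, 1490 and 3698, a rise of 3.16 (SE 0.50, limma adjusted p = 0.014), and Gm5483 rose by 2.82. Copies in this cluster are similar enough to share reads, so the split among them is uncertain. The 9 listed members, tested or not, summed to 621, 1053, 681, 22393 and 2113 in baseline and 26957, 2653, 6051, 6260 and 13132 in vehicle tumours. These sums overlapped, since baseline-316 lay above every vehicle tumour but vehicle-302. At least 3 were called without each single tumour except baseline-303, without which 0 were called. Ngp, a granule protein made by maturing neutrophils, was at 14.3, 9.64, 4.38, 13.8 and 12 against 113, 35.7, 21.2, 67.2 and 263, a rise of 2.66 (SE 0.79, limma adjusted p = 0.0404), and the call was lost without 8 of the 10 tumours, all but vehicle-308 and vehicle-311. Of 15 granule and maturation genes 3 were called higher, with a median of 0.83, among them Prok2, a secreted chemoattractant, at 3.55. Removal of the span trend left 1 called and ended the Ngp call. The count was 0 without baseline-303, baseline-305 or vehicle-326, 1 without baseline-304, baseline-316, baseline-320, vehicle-302 or vehicle-323, 2 without vehicle-311 and 5 without vehicle-308.

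**Figure D4:**
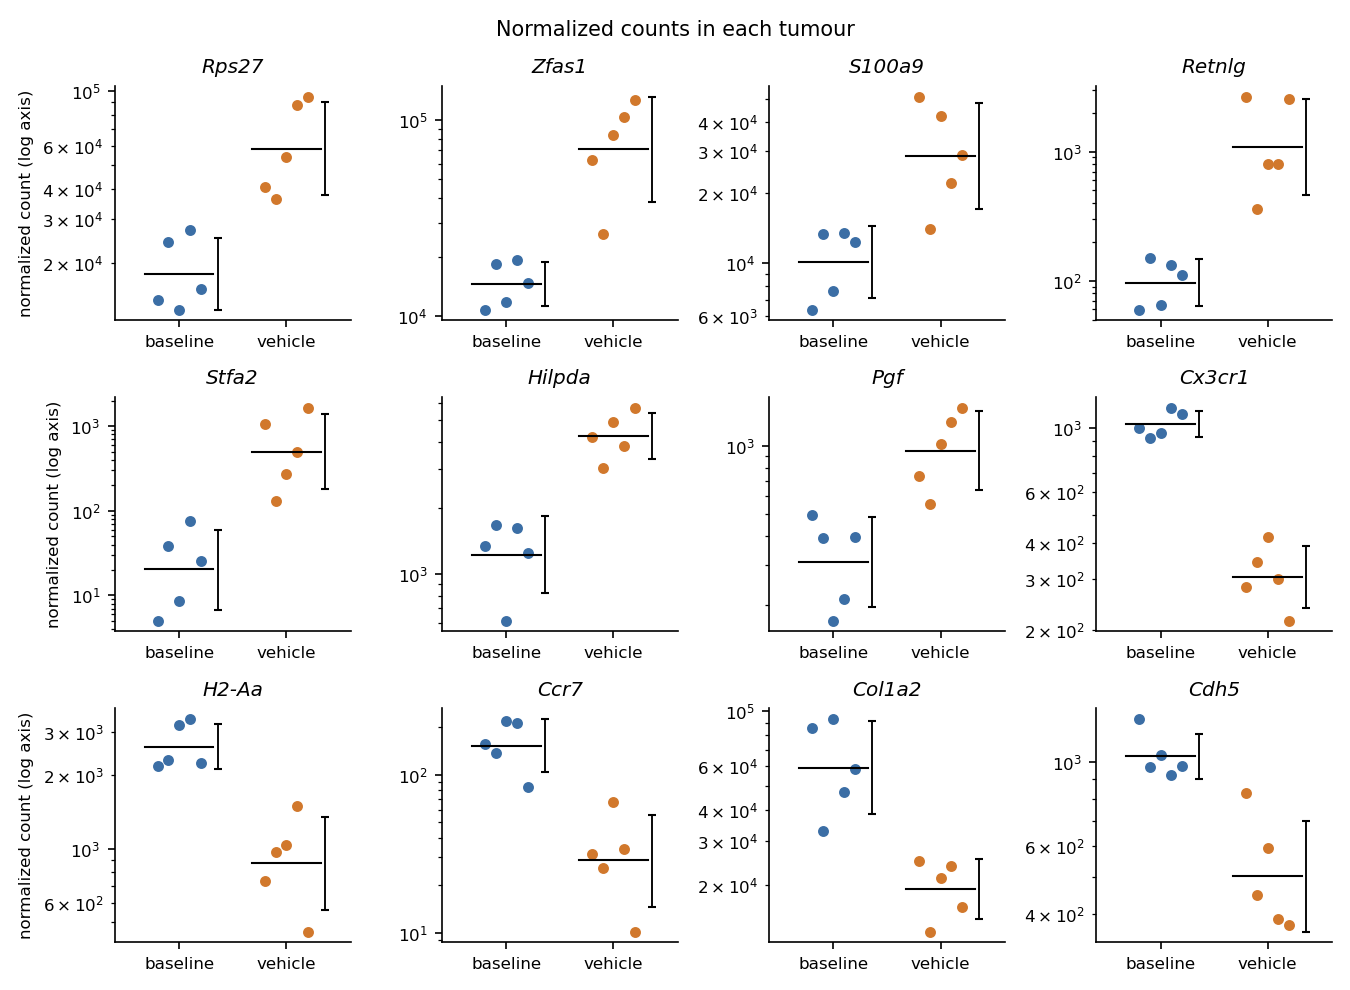
Each panel plots 1 gene on a logarithmic axis of normalized counts, with 1 point per tumour (blue for baseline, orange for vehicle), the mean on the log2 scale as a line and 1 standard deviation as a bar, n = 5 each. The groups do not overlap for Rps27, Zfas1, S100a9, Retnlg, Stfa2, Hilpda, Pgf, Cx3cr1, H2-Aa, Ccr7, Col1a2 and Cdh5, and the gap is narrow for S100a9 (13977 against 13525).

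Macrophage genes fell in part. Of 20 macrophage and monocyte genes 5 were called lower and 0 higher, with a median of -0.58. Cx3cr1, the fractalkine receptor (ENSMUSG00000052336, chromosome 9, 120048683 to 120068296), was at 1003, 920, 962, 1177 and 1119 in baseline and 281, 342, 417, 300 and 215 in vehicle tumours. The groups were far apart, with little spread within either. It fell by 1.76 on the log2 scale (SE 0.29, limma adjusted p = 0.014), a call kept without each tumour other than baseline-303. Adgre1, which encodes the F4/80 antigen, was at 1443, 1182, 1638, 1432 and 1234 against 532, 415, 857, 483 and 371, a log2 fold change of -1.44 (limma SE 0.30, adjusted p = 0.0183). Csf1r, the receptor for colony-stimulating factor 1, fell by 0.94, the monocyte chemokine receptor gene Ccr2 by 2.04 and the mannose receptor gene Mrc1 by 1.14. Cd68, a lysosomal protein of phagocytes, was at 1421, 2071, 1709, 1989 and 1970 against 1916, 1675, 2015, 2629 and 2643, a log2 fold change of 0.24 that did not pass. The endotoxin co-receptor gene Cd14 was at 0.18, the signalling adaptor gene Tyrobp at 0.09 and the complement gene C1qa at -0.57, none of which passed. The summed count of the 20 genes overlapped, at 74302 to 109188 in baseline and 35942 to 105883 in vehicle tumours. Counts were 0 without baseline-303, 1 without baseline-305, 1 without vehicle-326 and 3 without vehicle-323.

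Most dendritic cell genes fell. Of 12 tested 9 were called lower and 0 higher, with a median of -1.87. Ccr7, which guides dendritic cells to lymph nodes (ENSMUSG00000037944, chromosome 11, 99144199 to 99155077), was at 157, 138, 218, 214 and 83.4 in baseline and 31.6, 25.6, 67.4, 34 and 10.2 in vehicle tumours. Baseline-320 and vehicle-311 lay closest. Ccr7 fell by 2.38 (SE 0.44, limma adjusted p = 0.0169). Irf8, a transcription factor that dendritic cells require, was at 615, 566, 678, 659 and 469 against 350, 211, 370, 227 and 206, a log2 fold change of -1.16 (limma SE 0.20, adjusted p = 0.0144). The integrin gene Itgax fell by 1.77, the growth factor receptor gene Flt3 by 1.89 and Ccl22, a chemokine of mature cells, was at -2.25. Cd209a was at 61, 70.5, 113, 141 and 82 against 24.8, 0, 56, 12.5 and 18.6, a log2 fold change of -2.78 (limma SE 0.86, adjusted p = 0.0455) that was lost without 7 of the 10 tumours, all but vehicle-302, vehicle-308 and vehicle-311. Clec9a, of the cross-presenting subset, fell by 2.37 from 12.9 to 47.1 in baseline to 0 to 9.4 in vehicle tumours, and Siglech, of plasmacytoid cells, was at -1.84. Zbtb46, a factor of the classical lineage, fell by 1.01. Xcr1, another gene of the cross-presenting subset, was at -2.11 (limma adjusted p = 0.0519), Batf3, a factor of that subset, at 0.09 and the chemokine gene Ccl17 at -0.39. The summed count was 4259 to 5468 in baseline and 834 to 3086 in vehicle tumours. With the span trend removed 6 were called and with cyclic loess scaling 5. No member was called without baseline-303 or baseline-305, 2 were called without vehicle-323 or vehicle-326, and 4 without baseline-304, baseline-316 or baseline-320.

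Genes of MHC class II presentation were lower in most cases. Of 9 tested 6 were called lower, with a median of -1.26. H2-Aa, the alpha chain of a class II molecule (ENSMUSG00000036594, chromosome 17, 34282744 to 34287823), was at 2186, 2307, 3227, 3414 and 2236 in baseline and 734, 968, 1032, 1494 and 455 in vehicle tumours, and fell by 1.59 (SE 0.29, limma adjusted p = 0.0167). Ciita, the factor that switches class II genes on, was at 162, 174, 218, 170 and 172 against 70, 54.8, 46.2, 49.5 and 16.9, and fell by 2.02 (SE 0.42, limma adjusted p = 0.0183). Both genes separated the groups fully, and vehicle-326 was the lowest tumour in each. Cd74, the invariant chain, fell by 1.26, H2-Ab1 by 1.53 and H2-Eb1 by 1.61. The protease gene Ctss, which trims the invariant chain, fell by 0.73 (limma adjusted p = 0.0498). H2-DMb1, part of the peptide exchanger, was at 0.04 and the lysosomal reductase gene Ifi30 at -0.06. The summed count of the list was 17946 to 26208 in baseline and 7471 to 13313 in vehicle tumours. The count was 0 without baseline-303 or baseline-305, 1 without vehicle-326, and 5 to 6 in the other omissions.

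Some genes of mast cells and Toll-like receptors were also called lower. Mcpt4, a chymase, was at 307, 246, 533, 487 and 512 in baseline and 44.6, 32.1, 280, 114 and 90.4 in vehicle tumours. Vehicle-311 lay above baseline-304, so the groups overlapped, and the log2 fold change was -2.23 (SE 0.56, limma adjusted p = 0.0259). Cpa3, the mast cell carboxypeptidase, was at 219, 181, 468, 377 and 337 against 49.3, 22.4, 179, 78.2 and 94.1 and fell by 2.11 (SE 0.49, limma adjusted p = 0.0214). These are the 2 of 8 mast cell genes called, and 4 were called with the span trend removed. Of 11 Toll-like receptor genes 4 were called lower, with a median of -0.61. Tlr9, which senses DNA, was at 90.1, 86.5, 108, 78.6 and 66.2 against 22.4, 10.1, 29.8, 14.6 and 7.9 and fell by 2.41 (SE 0.45, limma adjusted p = 0.0169). Tlr7, Tlr8 and Tlr12 were at -1.35, -1.97 and -2.22. Neither list had a call without baseline-303, baseline-305 or vehicle-326, without vehicle-323 the counts were 0 and 1, without baseline-320 1 mast cell gene was called, and without baseline-316 2 Toll-like receptor genes were.

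Part of the fibroblast and collagen genes were lower in vehicle tumours. Of 19 fibroblast and matrix genes 9 were called lower and 0 higher, with a median of -0.97. Col1a2, a chain of type I collagen (ENSMUSG00000029661, chromosome 6, 4505618 to 4541543), was at 85855, 32838, 93369, 47289 and 58321 in baseline and 25052, 12952, 21317, 23876 and 16225 in vehicle tumours. Baseline-303 and baseline-305 were the highest and baseline-304 the closest to the vehicle group, from which all 5 were apart. Col1a2 fell by 1.62 (SE 0.31, limma adjusted p = 0.0176). Col1a1 was at 111259, 51818, 124842, 66980 and 86006 against 38123, 20233, 31067, 44163 and 25196, a log2 fold change of -1.46 (limma SE 0.31, adjusted p = 0.0183). Thbs2, a matrix thrombospondin, fell by 1.57, Pdgfra, the platelet-derived growth factor receptor of fibroblasts, by 1.25 and the microfibril gene Fbn1 by 1.16. The proteoglycan gene Dcn was at -0.73, Postn at -0.49, Sparc at -0.38 and the fibroblast protease gene Fap at -0.43, none of which passed. Of 36 collagen chain genes 14 were called lower, with a median of -0.93, and 9 with the span trend removed. They included Col3a1 at -1.52 and, from basement membrane, Col4a1 at -1.33. Of 12 mesenchymal transition genes 3 were called lower: Cdh11 at -1.42, Prrx1 at -1.09 and Tgfbi at -0.94. Vim, at 0.25, did not pass and turned to -0.00118 with cyclic loess scaling. The summed count of the fibroblast list was 254733 to 516125 in baseline and 104152 to 223385 in vehicle tumours. No gene of these lists was called without baseline-303, baseline-305 or vehicle-326. Without vehicle-323 the counts were 4, 5 and 2, and without baseline-320 they were 7, 9 and 2.

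Of the genes of vessels, 7 for endothelial proteins were lower and 3 for growth factors were higher. Of 13 endothelial genes 7 were called lower, with a median of -0.75. Cdh5, the cadherin of endothelial junctions (ENSMUSG00000031871, chromosome 8, 104101613 to 104144504), was at 1297, 971, 1043, 921 and 972 in baseline and 827, 447, 595, 386 and 372 in vehicle tumours, without overlap, and fell by 1.04 (SE 0.23, limma adjusted p = 0.0194). Tek, the angiopoietin receptor, was at 139, 131, 171, 147 and 94.8 against 83.5, 32.7, 60.6, 40.7 and 65.8 and fell by 1.30 (SE 0.31, limma adjusted p = 0.0222). Kdr, the main receptor for VEGF-A, fell by 1.12, Flt1 by 0.75, Tie1 by 0.99, Eng by 0.83 and Pecam1 by 0.76. Vwf, the von Willebrand factor, was at 0.12 and Egfl7 at 0.03. The summed endothelial count was 6888 to 8998 in baseline and 3996 to 6970 in vehicle tumours. Of 10 pericyte and smooth muscle genes only Notch3 was called, at -1.23. That call was lost with the span trend removed, and 3 genes of the list were called lower without vehicle-302. Among 12 angiogenic factors 3 were called higher. Pgf, placental growth factor (ENSMUSG00000004791, chromosome 12, 85166637 to 85177785), was at 495, 392, 170, 213 and 399 in baseline and 738, 554, 1025, 1277 and 1476 in vehicle tumours, with no overlap, and rose by 1.62 (SE 0.31, limma adjusted p = 0.0172). Vegfb rose by 1.02 (SE 0.21, limma adjusted p = 0.0181) and Efna1 by 0.85. Vegfa was at 8785, 12449, 5369, 6728 and 9780 against 15778, 12783, 9169, 9436 and 10387, an overlapping pair of groups with a log2 fold change of 0.45 (limma SE 0.22, adjusted p = 0.164). Removal of the span trend left 4 endothelial calls. Without baseline-303, baseline-305 or vehicle-326 neither list had a call, without vehicle-323 the counts were 0 and 2, and without baseline-320 they were 3 and 2.

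Integrin chain genes were lower in part. Of 30 genes with an integrin chain name 10 were called lower and 1 higher, with a median of -0.62, and the higher one, Itgb1bp1, encodes a protein that binds an integrin tail and is not itself a chain. Itga4, of the receptor for VCAM-1, was at 482, 314, 478, 339 and 384 in baseline and 178, 61.5, 120, 49.2 and 29.2 in vehicle tumours, and fell by 2.43 (SE 0.41, limma adjusted p = 0.014). Its groups were apart, and the call held without any single tumour but baseline-303. Called lower as well were Itgae at -1.60, Itgad at -2.16 and Itgb2, the shared beta chain of leukocyte integrins, at -0.83. The Itgb1bp1 call was lost with the span trend removed. The number called lower was 0 without baseline-303, 1 without baseline-305, 1 without vehicle-326, 2 without vehicle-323 and 5 without baseline-320.

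**Figure D5:**
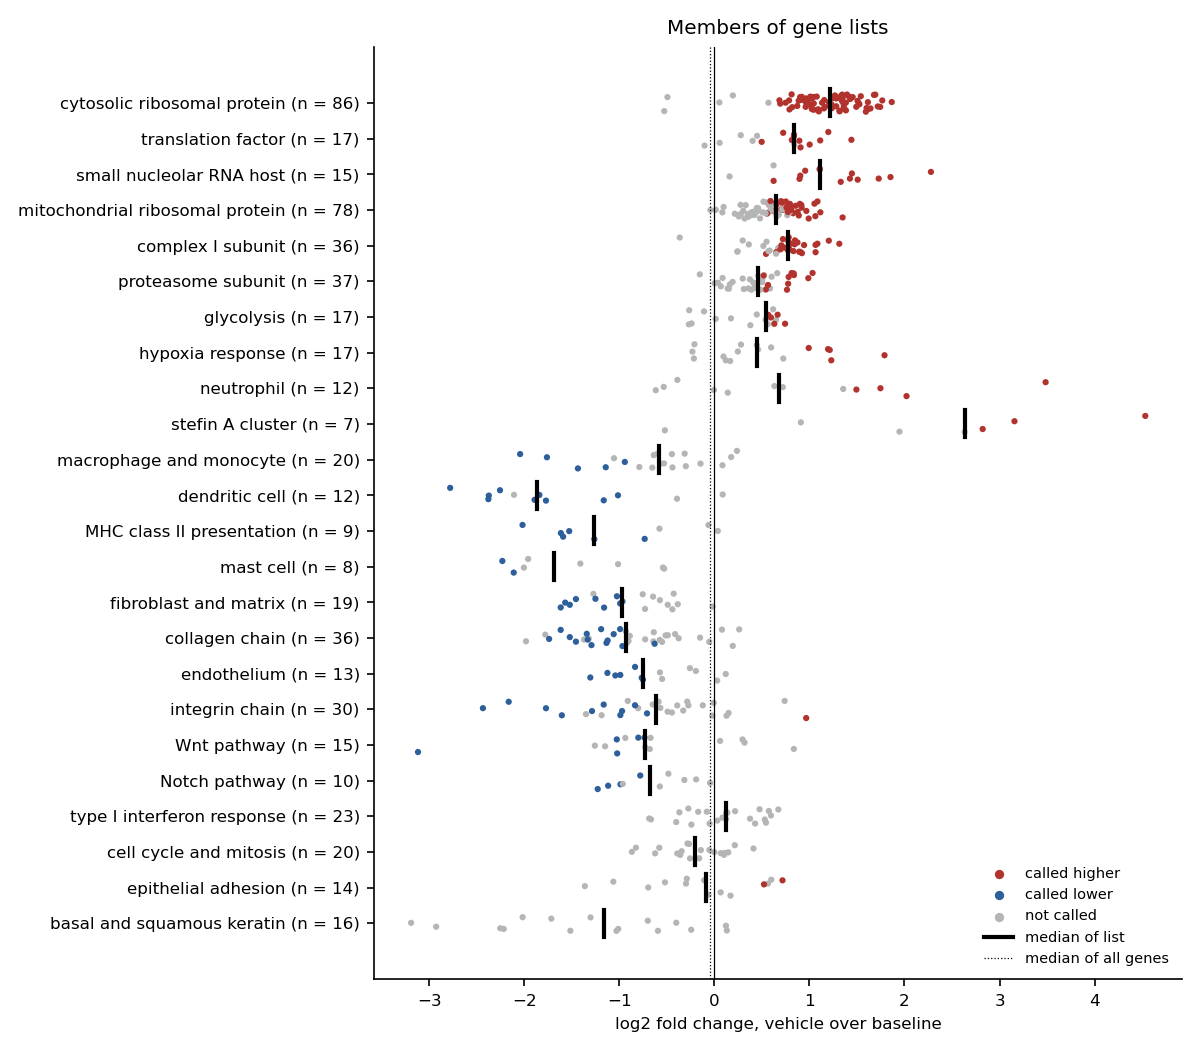
Each point is a tested gene of the list named on the left, placed by its log2 fold change of vehicle over baseline, red where called higher, blue where called lower and grey where not called. Thick bars mark list medians and the dotted line the median of all genes, -0.04. Ribosomal protein genes centre at 1.22 and dendritic cell genes at -1.87. Genes of the basal and squamous keratin list spread widely, with 0 of 16 called.

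Hypoxia genes split into a part that rose and a part that did not pass. Of 17 hypoxia response genes 5 were called higher and 0 lower, with a median of 0.45. Hilpda, which blocks lipid droplet breakdown (ENSMUSG00000043421, chromosome 6, 29272488 to 29275449), was at 1336, 1666, 614, 1620 and 1248 in baseline and 4192, 3037, 4920, 3836 and 5706 in vehicle tumours. Baseline-305 stood below the other baseline tumours and the groups were far apart. Hilpda rose by 1.79 (SE 0.32, limma adjusted p = 0.0165). Ankrd37, an ankyrin repeat protein induced by HIF, was at 1366, 1489, 1004, 1518 and 1663 against 3010, 2652, 2558, 3543 and 5067 and rose by 1.23 (SE 0.24, limma adjusted p = 0.0176). Bnip3, a mitophagy receptor, rose by 1.20, the vasoactive peptide gene Adm by 1.21 and the mitochondrial gene Higd1a by 0.99. Car9, the carbonic anhydrase used as a hypoxia marker, was at 845, 1350, 267, 620 and 960 against 1605, 1180, 487, 1678 and 931, a log2 fold change of 0.60 (limma SE 0.47, adjusted p = 0.386). The count was 0 without baseline-303 or vehicle-326, 1 without baseline-305 and 3 without vehicle-323 or baseline-320.

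The promoters of 3 of these genes are shown, chosen after values were seen, because they are called genes of the hypoxia and angiogenic lists. Each is the 150 bases before a RefSeq start (GRCm38.p6), 5′ to 3′ on the gene's strand. Capitals mark ACGTG or GCGTG, the core of the hypoxia response element, and CACGT or CACGC where the core is on the other strand. Where a gene has several annotated starts, the start with the most matches is shown. The Hilpda window lies mostly, and the Pgf window wholly, within the span given above for its gene.
Hilpda, chr6:29272476-29272625, plus strand: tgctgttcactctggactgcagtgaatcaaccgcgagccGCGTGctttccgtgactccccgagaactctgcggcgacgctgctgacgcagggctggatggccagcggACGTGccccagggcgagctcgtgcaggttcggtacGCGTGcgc
Ankrd37, chr8:45999851-46000000, minus strand: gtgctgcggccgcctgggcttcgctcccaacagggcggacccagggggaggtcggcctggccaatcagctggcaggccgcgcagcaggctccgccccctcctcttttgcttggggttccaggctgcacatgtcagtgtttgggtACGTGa
Pgf, chr12:85177314-85177463, minus strand: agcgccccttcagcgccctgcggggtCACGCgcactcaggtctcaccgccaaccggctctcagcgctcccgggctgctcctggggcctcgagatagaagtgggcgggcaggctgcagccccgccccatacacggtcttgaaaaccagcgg
Over the whole window, 250 bases before to 50 after the start and either strand, all 14 hypoxia genes with a window (100%) held the core, against 7795 of 12233 genes tested (63.7%). A gene with several annotated starts counted if any of its windows held the motif, so these shares depend on the number of starts. The core is short and frequent: it was in 70.2% of genes called higher, 59.9% of genes called lower and 69.4% of ribosomal protein genes. The longer motifs searched on both strands, TGACTCA or TGAGTCA of AP-1 and the interferon-stimulated response element, were in 5.27% and 3.75% of genes called higher and 5.62% and 5.47% of genes called lower, beside 5.22% and 3.74% of genes tested. The same shares were 16.1% and 17.3% beside 16.8% for TTTGAA or TTCGAA of cell cycle promoters, 8.71% and 12.0% beside 9.82% for TATAAA, and 42.2% and 40.5% beside 42.0% for CCAAT.

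Glycolysis genes were called higher in 5 of 17 cases, with a median of 0.54, and this direction turned on the scaling. Tpi1, triose phosphate isomerase, was at 24122, 25682, 22354, 24019 and 25478 in baseline and 32466, 40740, 36730, 41499 and 42209 in vehicle tumours and rose by 0.67 (SE 0.14, limma adjusted p = 0.0183). Gapdh was at 67332, 71286, 59493, 64926 and 71564 against 85995, 114969, 94377, 119378 and 156994 and rose by 0.74 (SE 0.18, limma adjusted p = 0.0246). Both were apart between groups in the deposited scaling. Pgk1 rose by 0.63, Pgam1 by 0.60 and Ldha, which makes lactate, by 0.57, while hexokinase Hk2 was at 0.01 and Pfkl at -0.26. With quantile scaling 0 were called and the median was -0.127, with Pgam1 at -0.119, and with cyclic loess scaling 0 were called and the median was 0.103. With the span trend removed 2 were called. Without baseline-303, baseline-305 or vehicle-326 the count was 0, without vehicle-323 it was 1, without baseline-320 it was 2, and it was 3 without vehicle-308 and 9 without vehicle-311.

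Part of the stress and lysosomal genes were called. The share called higher was 25% in each of the unfolded protein response, NRF2 and lysosomal lists and 14.3% for ATF4, beside 7.53% of all genes. It was 7.69% for p53 targets, 6.25% for immediate early genes and 0% for heat shock genes. Of 14 ATF4 and amino acid stress genes 2 were called higher, the transcription factor genes Atf4 and Ddit3. Atf4 was at 8428, 11502, 8309, 10904 and 9594 in baseline and 12795, 16406, 14055, 13468 and 15378 in vehicle tumours, without overlap, and rose by 0.57 (SE 0.12, limma adjusted p = 0.0185). Ddit3, which encodes CHOP, rose by 1.01. Only 1 of these was called with the span trend removed or with cyclic loess scaling, and the Atf4 call was lost in both. Of 12 genes of the unfolded protein response 3 were called higher, Herpud1 at 0.73, Manf at 0.72 and the translocon gene Sec61b at 0.84, while the chaperone gene Hspa5 was at -0.09, and with the span trend removed 0 were called. Quantile scaling gave 3 higher and 2 lower, and cyclic loess 1 of each. Of 12 NRF2 antioxidant genes 3 were called higher: Gsta4, Hmox1 and Akr1b8 at 1.27, 0.75 and 0.69. Gsta4, a glutathione transferase, was at 6592, 8490, 7328, 17871 and 7565 against 15399, 17989, 14211, 36389 and 31243, with baseline-316 inside the vehicle range. Of 10 heat shock genes 0 were called, with 4 at an unadjusted p under 0.05 and a median of -0.42, but 2 were called lower with the span trend removed or quantile scaling and 1 with cyclic loess. Of 13 p53 targets Bax, which opens the mitochondrial membrane, rose by 0.75, and Sesn1 and Eda2r were called lower, at -0.57 and -1.45, of which 1 lower call was left with the span trend removed or with either scaling. Among 16 immediate early genes Ier3 rose by 0.92 and Jun, a subunit of AP-1, fell by 0.65, and the Ier3 call was lost with the span trend removed. Of 12 lysosomal genes 3 were called higher and 1 lower. The cathepsin gene Ctsl was at 10351, 10438, 10124, 9784 and 10652 against 15774, 20681, 14248, 17395 and 19767, apart between groups, and rose by 0.76 (SE 0.15, limma adjusted p = 0.0181). Ctsd rose by 0.58 and Npc2, a cholesterol carrier, by 1.13. The lower call was lost with the span trend removed, and both scalings gave 2 higher and 2 lower. None of these calls was kept without baseline-303, baseline-305 or vehicle-326. Without vehicle-323 the numbers called higher were 1 for ATF4, 0 for the unfolded protein response, 0 for NRF2 and 1 for lysosomal genes, and the Bax call was lost. Without baseline-320 the first 3 of these numbers were 2, 0 and 0. Without baseline-304 they were 4, 1 and 2, and without vehicle-311 they were 2, 1 and 2. The heat shock list had 5 genes called lower without vehicle-308, 1 lower without vehicle-311, 2 higher without baseline-316, and 1 higher without vehicle-302 or vehicle-308.

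Part of the epithelial genes of the kind the cancer cells express were called. Called higher were 7.14% of luminal and 14.3% of adhesion genes, beside 7.53% of all genes. The share was 0% in the basal and squamous keratin and cornified envelope lists. Called lower were 0% in each of these lists, beside 5.5% of all genes. The basal and squamous keratin list holds keratins and other genes such as Dsc3. Of its 16 genes limma called 0, with 2 at an unadjusted p under 0.05 and a median of -1.17. From this list 1 gene was called lower without vehicle-302 or vehicle-308. Krt5, a basal keratin, was at 37602, 66611, 16118, 58210 and 12857 in baseline and 31575, 43080, 2285, 18451 and 1381 in vehicle tumours. Vehicle-311 and vehicle-326 were below every other tumour, while the other 3 vehicle tumours lay within the baseline range. Its log2 fold change was -1.71 (SE 0.90, limma adjusted p = 0.194), and those of Krt14 and Krt13 were -1.01 and -2.21. Of 17 cornified envelope genes 0 were called and 0 had an unadjusted p under 0.05, with a median of -0.94 and Ivl, involucrin, at -0.87. Among 14 luminal urothelial genes 1 was called, the simple epithelial keratin Krt18, at 10110, 8196, 11340, 7483 and 13965 against 8171, 20999, 21109, 24950 and 42120. Vehicle-302 lay within the baseline range and the other 4 above it, a log2 fold change of 1.06 (limma SE 0.32, adjusted p = 0.0431), lost without 8 tumours, all but vehicle-302 and vehicle-308. The Krt18 call was also lost with the span trend removed and with either scaling, and 3 luminal genes were called higher without vehicle-302. Upk1b, a uroplakin, was at -0.34 and turned to 0.0999 with array weights and to 0.224 without vehicle-308. Of 14 epithelial adhesion genes the tight junction genes Cldn4 and Ocln rose by 0.72 and 0.52 (limma adjusted p = 0.0271 and 0.0495), and Cdh1, E-cadherin, was at -0.29. Ocln was apart between groups, at 1185, 1245, 1179, 927 and 1214 against 1344, 1654, 2019, 1432 and 1863, and its call was lost without 9 of 10 tumours, all but vehicle-302. The Cldn4 call was lost without baseline-303, baseline-305, vehicle-323 or vehicle-326. Of the adhesion list 1 gene was called with the span trend removed, 1 with quantile and 0 with cyclic loess scaling, and without vehicle-302 the list had 4 higher and 2 lower.

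Part of the DNA replication genes and no mitosis genes were called. Called lower were 12.5% of DNA replication and 0% of mitosis genes, beside 5.5% of all genes. Called higher were 0% of both, beside 7.53% of all genes. Of 20 cell cycle and mitosis genes limma called 0, with 5 at an unadjusted p under 0.05 and a median of -0.21. Mki67, the proliferation marker, was at 8299, 6869, 6432, 5071 and 5369 in baseline and 5265, 5399, 2827, 2444 and 2914 in vehicle tumours. Vehicle-302 and vehicle-308 lay within the baseline range and the other 3 vehicle tumours below it, and the log2 fold change was -0.82 (SE 0.34, limma adjusted p = 0.11). Of 16 DNA replication genes 2 were called lower, the polymerase gene Pola1 at -1.07 and the helicase gene Mcm4 at -0.78 (limma adjusted p = 0.0372 and 0.0316), and 1 with the span trend removed, when the Pola1 call was lost. No gene of either list was called without baseline-303, baseline-304, baseline-305, baseline-320, vehicle-323 or vehicle-326, and 4 DNA replication genes were called lower without vehicle-311.

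Among signalling pathways, 5 Wnt and 4 Notch pathway genes were called lower. Of 15 Wnt genes 5 were called lower, with a median of -0.74. Fzd1, a Wnt receptor, was at 2517, 2396, 2188, 2445 and 2581 in baseline and 1396, 1202, 1689, 1679 and 1370 in vehicle tumours, apart and with little spread in baseline. It fell by 0.73 (SE 0.13, limma adjusted p = 0.014), a call lost only without baseline-303. Wnt5a, a ligand, was at 2315, 1181, 1853, 1316 and 1703 against 870, 950, 914, 859 and 497 and fell by 1.03 (SE 0.22, limma adjusted p = 0.0183). Fzd2, Fzd10 and the feedback gene Nkd1 fell by 0.80, 3.12 and 1.02. Of 10 Notch genes 4 were called lower: Notch1 at -0.99, Notch2 at -0.78, Notch3 at -1.23 and the target gene Heyl at -1.12. With the span trend removed 1 Notch gene was called. Notch1 was at 3244, 2659, 2776, 2989 and 2527 against 2351, 2111, 1169, 1002 and 1015 and did not overlap. Of 16 TGF beta and BMP genes the receptor gene Tgfbr1 and the repressor gene Skil fell by 0.93 and 0.86. Of 11 ERBB genes the ligand gene Hbegf rose by 0.82 (SE 0.21, limma adjusted p = 0.0258), and 2 were called higher without baseline-304. Without baseline-303 no gene here was called. Without baseline-305 or vehicle-326 the Wnt list kept 1 call each and the other 3 lists none, and without vehicle-323 Wnt kept 3 and the others none. Without baseline-320 the counts were 3 for Wnt, 1 for Notch, 0 for TGF beta and BMP and 1 for ERBB. The Wnt count was also 3 without baseline-316 or vehicle-311, with 1 gene called higher without baseline-320. The Notch count was 2 without baseline-304 or baseline-316 and 1 without vehicle-311.

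Part of the inflammatory mediators were called. Called higher were 14.3% of cytokines, 13.3% of matrix proteases and inhibitors, 5.56% of chemokines and 0% of complement genes, beside 7.53% of all genes. Called lower were 7.14%, 6.67%, 0% and 8.33% in the same order, beside 5.5% of all genes. The neutrophil chemokine gene Cxcl2 was the only called gene of 18 chemokines, at 2468, 3915, 3232, 3961 and 4658 in baseline and 11159, 5033, 12992, 6978 and 9483 in vehicle tumours. It was apart between groups and rose by 1.28 (SE 0.30, limma adjusted p = 0.0214). Cxcl1, another ligand of the same receptor, was at 1397 in vehicle-302 and at 20.9 to 228 in the other vehicle tumours, beside 26.9 to 139 in baseline, and did not pass at 1.03. Of 14 cytokines Tnf rose by 0.78 and Il24 by 1.39, and Il33, an alarmin of epithelium and stroma, fell by 0.98. Il1b was at -0.21 and its sign was not stable, ranging from -0.55 to 0.162 as single tumours were left out. Among 12 complement genes the receptor gene C3ar1 fell by 0.93. Of 15 matrix protease and inhibitor genes the urokinase receptor gene Plaur rose by 0.87, Timp2 by 0.68, and Timp3 fell by 0.86. None of these genes was called without baseline-303, baseline-305 or vehicle-326, and only Cxcl2 was called without vehicle-323. Both cytokine rises were also lost without vehicle-311, Il24 without vehicle-302 or baseline-320, and C3ar1 without baseline-320. The cytokine list had 0 lower calls without baseline-304 or baseline-316 too. With the span trend removed no cytokine was called, the Timp3 call was lost and 1 chemokine was called lower. Without vehicle-302 the complement list had 2 lower calls. Timp3 was called only without vehicle-302, vehicle-308 or vehicle-311.

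Part of the interferon gamma and MHC class I genes were called. Called higher were 0% of type I interferon, 5.56% of interferon gamma and 12.5% of MHC class I genes, beside 7.53% of all genes. Called lower were 0%, 5.56% and 6.25% in the same order, beside 5.5% of all genes. Of 23 type I interferon response genes limma called 0, with 5 at an unadjusted p under 0.05 and a median of 0.12, which lay between -0.124 and 0.213 as single tumours were left out. Of 18 interferon gamma response genes Psmb9, an immunoproteasome subunit, was called higher at 0.78 and Ciita lower, with a median of -0.02. Of 16 MHC class I genes Psmb9 and H2-T23, a nonclassical class I gene, were called higher, at 0.78 and 0.60, and Erap1, a peptide trimming enzyme, lower, at -0.68. The median of 0.31 turned to -0.145 under quantile scaling and to -0.056 under cyclic loess. B2m, the class I light chain, was at 0.40 and H2-K1 at 0.34, neither called, and both turned with those scalings: quantile gave -0.302 and -0.356, cyclic loess -0.0538 and -0.116. Cd274, which encodes PD-L1, was at 0.35 (limma adjusted p = 0.295). The Psmb9 and H2-T23 calls were lost with the span trend removed and with cyclic loess scaling, and H2-T23 with quantile scaling. They were each lost without 8 tumours, all but vehicle-302 and vehicle-308, and Erap1 without baseline-303, baseline-305, baseline-320, vehicle-323 or vehicle-326.

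The host label was read from 2 genes. Il2rg was at 73.7, 125, 51.2, 57.6 and 69.3 in baseline and 149, 75.5, 92.2, 185 and 89.2 in vehicle tumours, an overlapping pair with a log2 fold change of 0.63 (limma adjusted p = 0.148). Prkdc was at 1353, 884, 1037, 926 and 1017 against 776, 783, 585, 503 and 498 and fell by 0.74 (SE 0.21, limma adjusted p = 0.0361). The cancer cells carry their own copies of both genes, so these levels do not settle the host's genotype. Of 15 T cell genes 9 passed the filter on low values and limma called 0, with 1 at an unadjusted p under 0.05, and Cd3e, a defining chain of the T cell receptor complex, was not among those that passed. The 15 listed genes, tested or not, summed to 545 to 618 in baseline and 322 to 519 in vehicle tumours. Of 12 B and plasma cell genes 4 passed the filter, and of these Ighm, the heavy chain of IgM, was at 73.7, 224, 103, 159 and 97.8 against 17.3, 37.3, 55.7, 16.7 and 21.9 and fell by 2.15 (SE 0.53, limma adjusted p = 0.0245). Of 10 NK and cytotoxic genes 3 passed, of which Klrk1 was at 16.6, 25.9, 29.8, 25.8 and 17.8 against 4.1, 0, 3.01, 1.52 and 1.77 and fell by 3.13 (SE 0.52, limma adjusted p = 0.014). Without baseline-303 none of Prkdc, Ighm and Klrk1 was called. Ighm was also lost without baseline-305, vehicle-323 or vehicle-326, and Prkdc without these, baseline-320 or vehicle-311, or with the span trend removed. The T cell list had 1 lower call without vehicle-302 or vehicle-308, and the B and plasma cell list 2 without vehicle-302. Of 11 histone deacetylase genes Hdac3 alone was called, at 2768, 2956, 2512, 3235 and 2936 against 4056, 4187, 4427, 5406 and 5323. It rose by 0.69 (SE 0.12, limma adjusted p = 0.0151), a call lost without baseline-303, baseline-305 or vehicle-326.

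Transcripts of tissues next to the tumour differed between single tumours. The 13 skeletal muscle genes summed to 20935, 4008, 99589, 9565 and 12707 in baseline and 18338, 1125, 993, 10398 and 83206 in vehicle tumours, highest in baseline-305 and vehicle-326. Limma called 0 of them, and 0 had an unadjusted p under 0.05. The 11 adipocyte genes summed to 2657, 19623, 3627, 17374 and 2821 against 2672, 845, 6761, 1841 and 7072, highest in baseline-304 and baseline-316, with 0 called, 6 at an unadjusted p under 0.05 and a median of -2.15. Lep, leptin, was at -4.07 (limma adjusted p = 0.0563) and Adipoq at -3.25, and 2 adipocyte genes were called lower without vehicle-311. The 10 listed skin and hair follicle genes, of which 5 were tested, summed to 5034, 909, 987, 16787 and 6672 against 2578, 1088, 577, 789 and 546. Krt77, a keratin of skin, was at 1164, 16.8, 3.3, 976 and 989 against 1.32, 1.83, 5.77, 10.7 and 0, a log2 fold change of -5.46 (limma SE 1.66, adjusted p = 0.043), lost without 9 tumours, all but baseline-304. It was high in baseline-303, baseline-316 and baseline-320 and low in the other 7 tumours. The 5 red cell genes had a median of 0.86, with 0 called and 0 at an unadjusted p under 0.05. Whether the skin or fat carried along with a tumour plays a part in other genes' differences was not tested.

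Major urinary proteins, lipocalins made mainly by liver and by some glands, gave the lowest median of the lists, -4.79 over 6 genes, of which 4 were called lower. Mup10 was at 256, 445, 362, 307.8 and 358 in baseline and 0, 0, 79, 6.74 and 0 in vehicle tumours, and its log2 fold change was -6.56 (SE 1.24, limma adjusted p = 0.0169). Mup17 was at 95.9, 136, 118, 107 and 130 against 0, 0, 24.1, 3.91 and 0, and fell by 5.48 (SE 0.99, limma adjusted p = 0.0165). In both, vehicle-311 was the highest of its group and still below every baseline tumour. Mup9 and Mup18 fell by 4.73 and 4.85. Mup20 went the other way, at 1.68, 11.4, 39.4, 70.2 and 80.1 against 78.7, 35.8, 381, 3183 and 1541, and did not pass at 3.89 (limma adjusted p = 0.0719). The 16 listed copies, tested or not, summed to 584, 1281, 864, 923 and 958 in baseline and 80, 38.6, 666, 3211 and 1549 in vehicle tumours. These genes are near-identical copies, so the value of any single one is uncertain. Without baseline-303, baseline-305 or vehicle-326 none was called, and 1 gene of the list was called higher without vehicle-302 or vehicle-308.

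The remaining genes with the largest called changes belonged to no group above. Pcp4l1, a calmodulin-binding peptide, was at 47.9, 19.3, 41.7, 54.2 and 66.8 in baseline and 503, 96.1, 2227, 228 and 121 in vehicle tumours, highest in vehicle-311, and rose by 2.84 (SE 0.75, limma adjusted p = 0.0286). Edn2, a vasoconstrictor peptide, was at 34.5, 38.6, 16.4, 31.9 and 24 against 82.9, 148, 46.2, 222 and 238 and rose by 2.12 (SE 0.46, limma adjusted p = 0.0185). Prl2c2, proliferin, was at 200, 240, 72.1, 213 and 111 against 1752, 403, 293, 2063 and 445 and rose by 2.23 (SE 0.57, limma adjusted p = 0.0261), in a cluster whose copies share reads. Fam71e1 rose by 1.92. Rn7s2, a copy of the signal recognition particle RNA, and Rn7sk, an RNA that holds back transcription elongation, rose by 2.43 and 1.71. Neither RNA carries a poly(A) tail, while the libraries were made with an mRNA kit. Rn7sk was at 514, 593, 356, 832 and 502 against 1928, 1293, 2035, 2062 and 1637, apart between groups. Among the lowest, Igfbp5, which binds insulin-like growth factors, was at 1096, 1887, 1525, 798 and 511 against 306.1, 238, 298, 125 and 118 and fell by 2.39 (SE 0.43, limma adjusted p = 0.0166). The small leucine-rich proteoglycan gene Ogn fell by 2.60, and the zinc finger genes Zfp990 and Zfp808 were called lower at -2.44 and -2.42. Of 359 genes named Zfp, 34 were called lower (9.47%) and 5 higher (1.39%), with a median of -0.26. Over all genes these shares were 5.5% and 7.53%. Quantile scaling gave 27 lower and 12 higher, and cyclic loess 29 and 9. Of 40 protocadherin genes 5 were called lower (12.5%), with a median of -0.85, and 3 with cyclic loess scaling. The Rn7s2 call was lost with the span trend removed. Every call of these groups was lost without baseline-303, and the Zfp and protocadherin lists had 0 lower calls without baseline-305 or vehicle-326 as well, 6 and 2 without vehicle-323, and 13 and 3 without baseline-320. The protocadherin count was 9 without vehicle-302 or vehicle-308. Pcp4l1, Edn2, Prl2c2, Fam71e1, Rn7s2 and Ogn were also lost without baseline-305, vehicle-323 or vehicle-326, and Igfbp5, Zfp990 and Zfp808 without baseline-305 or vehicle-326. Rn7s2 and Pcp4l1 were lost without baseline-304 too, Rn7s2 and Prl2c2 without baseline-320, and Rn7s2 without vehicle-311.

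The same step, baseline to vehicle, was also measured in tumours of C57BL/6 mice, with 4 baseline and 6 vehicle tumours in a table normalized on its own. There limma called 0 of 17053 genes (0%), with 749 at an unadjusted p under 0.05 and a smallest adjusted p of 0.148. The difference between the hosts in this step, tested in 1 fit of both tables, gave 0 called of 16335 genes (0%), with 2721 at an unadjusted p under 0.05 and a smallest adjusted p of 0.072. The differences above are therefore not shown to be particular to NSG mice. Of 2250 genes called in NSG tumours and tested in both hosts, 1146 had a log2 fold change of the same sign in C57BL/6 tumours. Nearly as many had the opposite sign. The share over all genes tested in both hosts was not computed, so this count does not show that the hosts moved alike. Side by side, the log2 fold change in NSG and in C57BL/6 tumours was 1.69 and 0.20 for Rps27, 4.53 and -2.68 for Stfa2, 1.79 and -0.36 for Hilpda, -1.59 and -0.50 for H2-Aa, -1.62 and -0.88 for Col1a2 and -2.43 and 0.17 for Itga4. The differences were 1.49 (SE 0.47, limma adjusted p = 0.138) for Rps27, 7.21 (SE 1.54, limma adjusted p = 0.0955) for Stfa2, 2.15 (SE 0.50, limma adjusted p = 0.105) for Hilpda and -1.09 (SE 0.50, limma adjusted p = 0.267) for H2-Aa. Leaving out 1 tumour at a time, the count of genes that differed between hosts was 373 without C57BL/6 vehicle-424, 28 without C57BL/6 vehicle-405, 15 without NSG vehicle-308, 13 without C57BL/6 baseline-426, 7 without C57BL/6 baseline-416, 5 without NSG vehicle-302 and 0 otherwise.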

How the data were processed

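RNA was extracted with the Qiagen RNeasy Plus Mini kit and made into TruSeq Stranded mRNA libraries, per the labels' protocols. The values are a signal per gene, deposited as DESeq2-normalized counts in 1 table per host, and STAR, DESeq2 and the mm10 build were used without stated versions, per the submitters' processing notes. How reads of near-identical genes were counted is not given in the sources used here.

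From these values, log2(value + 1) was fitted with limma 3.58.1 (R 4.3.3, variance trend, robust). The 5 NSG baseline, 5 NSG vehicle and 5 NSG entinostat libraries were fitted together, so that the 3 groups share 1 estimate of the spread. A gene was tested where at least 5 libraries reached a value of 10, and no covariates were used. P-values were adjusted by Benjamini-Hochberg over all genes tested, and genes under 0.05 were called. The host difference was a contrast of both steps in 1 fit of both tables. Symbols came from a name table by Ensembl ID (47187 of 47606 matched), coordinates and promoters from RefSeq tables of GRCm38, in which 32851 promoter windows cover 27025 genes. No 2 libraries held identical values.

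The members and gene lists were chosen with earlier results of these data known. The lists of translation factors, small nucleolar RNA hosts, stefins, neutrophil granule genes and nuclear noncoding RNAs, and those drawn by symbol (all ribosomal proteins, mitochondrial ribosomal proteins, complex I, proteasome, collagens, integrins, Toll-like receptors, protocadherins, Zfp, Mup and prolactin genes), and the alternatives that remove the span trend, entinostat-319, or baseline-303 with 305, were added after the values were seen. The nuclear noncoding RNA list had 1 of 8 genes called higher and 2 lower, and the prolactin list 2 of 3 higher (2 and 1 higher with the span trend removed). Of the lists not described, the Schwann cell list (7 genes) had 0 called and 0 at an unadjusted p under 0.05, the core histone list (6) had 0 called and 5, and the cholesterol and fatty acid synthesis list (18) had 1 called lower, Acaca at -0.87, lost with the span trend removed. A shorter ribosomal list of 16 genes had all 16 called higher. Named genes were the 10 highest and 10 lowest called whose higher group averaged 50 or more and did not overlap the other, passing over unnamed and predicted genes, the 2 members per list of smallest p, and a set of markers. Other list members are named as examples chosen after their values were seen.

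The test was tested on simulated data of 17752 genes for NSG vehicle against baseline. Recovery was 74.6% of 67 genes changed 4-fold, 46.3% of 67 changed 2-fold and 15.2% of 66 changed 1.5-fold, with 5 false calls. Far fewer genes were changed there than the 2312 called in the data. Adjusted p-values depend on how many genes change, so these rates may not carry over to the data. Sequencing reads, exome and T cell receptor data were not used here. Figures used Python 3.11.15, numpy 2.4.6, pandas 2.3.3 and matplotlib 3.10.9.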

Additional observations from a re-analysis of the deposited data

Results flagged for a closer look

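In 7 of 274 groups of 5 tumours checked over 137 named genes (2.55%), 1 tumour stood apart from the other 4 by more than Dixon's 95% critical value of 0.71. Chance alone sets 1 tumour apart in about 1 group in 20. Vehicle-308 stood apart in the matrix gene Thbs2, at 2514.75 normalized counts with the other vehicle tumours at 4554 to 5748. It also stood apart in Uchl1, a neuronal deubiquitinase, at 600.0 with the others at 11 to 31.8. Vehicle-326 was low in the Wnt ligand gene Wnt5a, at 497.3 with the others at 859 to 949.8. Baseline-316 was low in the tight junction gene Ocln, at 926.8 with the others at 1179 to 1245, and high in the glutathione transferase gene Gsta4, at 17871.1 with the others at 6592 to 8490. Baseline-305 was low in the hypoxia gene Hilpda, at 614.4 with the others at 1248 to 1666, and high in Ciita, the switch of MHC class II genes, at 217.6 with the others at 161.7 to 174.2. The causes were not tested.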

How the results depend on the processing

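No paired analysis was possible because no tumour number occurs in both groups. Of the 2312 NSG genes called, the count moved to 1409 with no filter on low values, 6636 with array weights and 3707 without entinostat-319 in the shared spread. At 2-fold, 923 moved to 2098 with array weights and 564 with the gene span trend removed. Without baseline-303 and baseline-305 both counts were 0. Leaving out 1 tumour gave 0 to 3292 called genes, and 0 to 1369 at 2-fold. The host difference, 0, ranged from 0 to 373. Both counts stayed within 1.5 times with a pseudocount of 5, a minimum of 50, quantile or cyclic loess scaling, the 10 libraries alone, or neither trend nor robust fit. Directions turned for Pgam1 (-0.119), B2m (-0.302) and H2-K1 (-0.356) with quantile scaling, for B2m (-0.0538), H2-K1 (-0.116) and Vim (-0.00118) with cyclic loess, for Upk1b (0.0999) and Il1b (0.0779) with array weights, and for Cd68 (-0.0862) with the span trend removed. Leaving out 1 tumour, Il1b ranged from -0.550 to 0.162 and Upk1b from -0.84 to 0.224. The cause was not tested. Tumour number limits precision: at 5 per group a 1.5-fold change was seldom recovered in simulated data, in which far fewer genes were changed than were called here.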
